A study of Rattus norvegicus with 2 samples.

Results

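The genes described here encode the enzymes of the tricarboxylic acid (TCA) cycle, with succinate dehydrogenase (complex II), and the steps by which pyruvate and glutamate enter it. They were chosen by gene symbol from a list of 36. No value entered this rule, but earlier results of these data were known when genes and lists were chosen. All 36 were found among the 23188 transcript clusters of the array, each on 1 cluster that carries no other symbol. A transcript cluster is a group of probes for a gene. The study compared C6 cells, an established rat glioma line of wild-type genotype, with C6 TAZ cells, in which the acyltransferase tafazzin had been knocked out in the same line by CRISPR-Cas9. Both were grown in the same medium, and the labels name no treatment beyond the knockout. RNA from 3 biological replicates of each genotype was pooled and measured on 1 Affymetrix Clariom S rat array per genotype. The sources used here do not say whether the C6 TAZ cells descend from 1 clone.

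With 1 array per condition, no difference below has a replicate check and no p-value, SD or interval between samples can be given. Values are log2 signals as the authors deposited them, and a difference is the C6 TAZ signal minus the C6 signal, so that 1 is 2-fold and 0.585 is 1.5-fold. The arrays had median log2 signals of 6.39 (C6) and 6.40 (C6 TAZ). Tafazzin itself (Taz) read 10.34 (C6) and 9.84 (C6 TAZ), 1.41-fold lower in the knockout. Where its probes lie relative to the edited site was not examined, so this signal does not check the genotype. Of 7 glioma and astroglial markers, vimentin (Vim, 18.72 and 18.77), nestin (Nes, 13.22 and 13.08) and Cd44 (15.16 and 15.94) were bright in both arrays. S100b (9.82 and 10.40) and Cspg4 (9.86 and 10.36) were above the array medians. The glutamate transporter Slc1a3 (3.91 and 4.67) and Gfap (5.73 and 6.38) were not. Cd44, Slc1a3, Gfap, S100b and Cspg4 were higher in C6 TAZ, with differences from 0.50 (Cspg4) to 0.78 (Cd44). Vim was at 0.05 and Nes at −0.14. Of 10 markers of neurons, microglia, endothelium and muscle, 9 lay under the median in both arrays, the exception being Snap25 (9.65 and 9.42). The names of the arrays come from the workbook columns. A second table, arranged by sample, holds the same values under the opposite names in 100% of the clusters. With those names every difference given here would change its sign.

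The TCA cycle oxidises the acetyl group of acetyl-CoA in the mitochondrial matrix and passes the electrons to the respiratory chain, in part directly through succinate dehydrogenase in the inner membrane. Pyruvate is brought in by the mitochondrial pyruvate carrier and turned into acetyl-CoA by the pyruvate dehydrogenase complex, which is switched off by kinases and on by phosphatases. Glutamate enters as 2-oxoglutarate, through glutamate dehydrogenase or the aspartate aminotransferases, and glutamine is a common source of it in cultured tumour cells.

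Of the 36 genes, 1 exceeded its C6 signal by 2-fold or more in C6 TAZ, the pyruvate dehydrogenase kinase gene Pdk2, and 0 were lower by that much. Among all clusters 2.34% were higher and 2.10% lower by at least 2-fold, 4.44% in either direction, so the number of genes past 2-fold was near that background. At 1.5-fold, the count was 1 higher and 3 lower, against 9.87% and 9.05% of all clusters and 18.9% in either direction. The 3 lower genes were the NADP-dependent isocitrate dehydrogenases Idh2 and Idh1 and the cytosolic aspartate aminotransferase Got1. Among the 9322 clusters whose mean log2 signal reached 8, as it did for 35 of the 36 genes, the shares were 2.75% higher and 2.31% lower (5.05% in all) at 2-fold and 9.91% higher and 8.73% lower (18.6% in all) at 1.5-fold, and 50.1% were below 0. Small differences in the lower direction were more common, with 25 genes below 0, 10 above 0 and 1 at 0, while 49.5% of all clusters were below 0. The median difference of the 36 genes was −0.21, against 0.00 over all clusters and −0.02 over the 6278 clusters whose mean log2 signal reached 10, where 32 of the 36 genes lay. Without the kinases and phosphatases, the median of the remaining 30 genes was −0.19. In RNA from whole cultures, fewer cells of a type and less RNA per cell cannot be told apart.

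**Figure D1:**
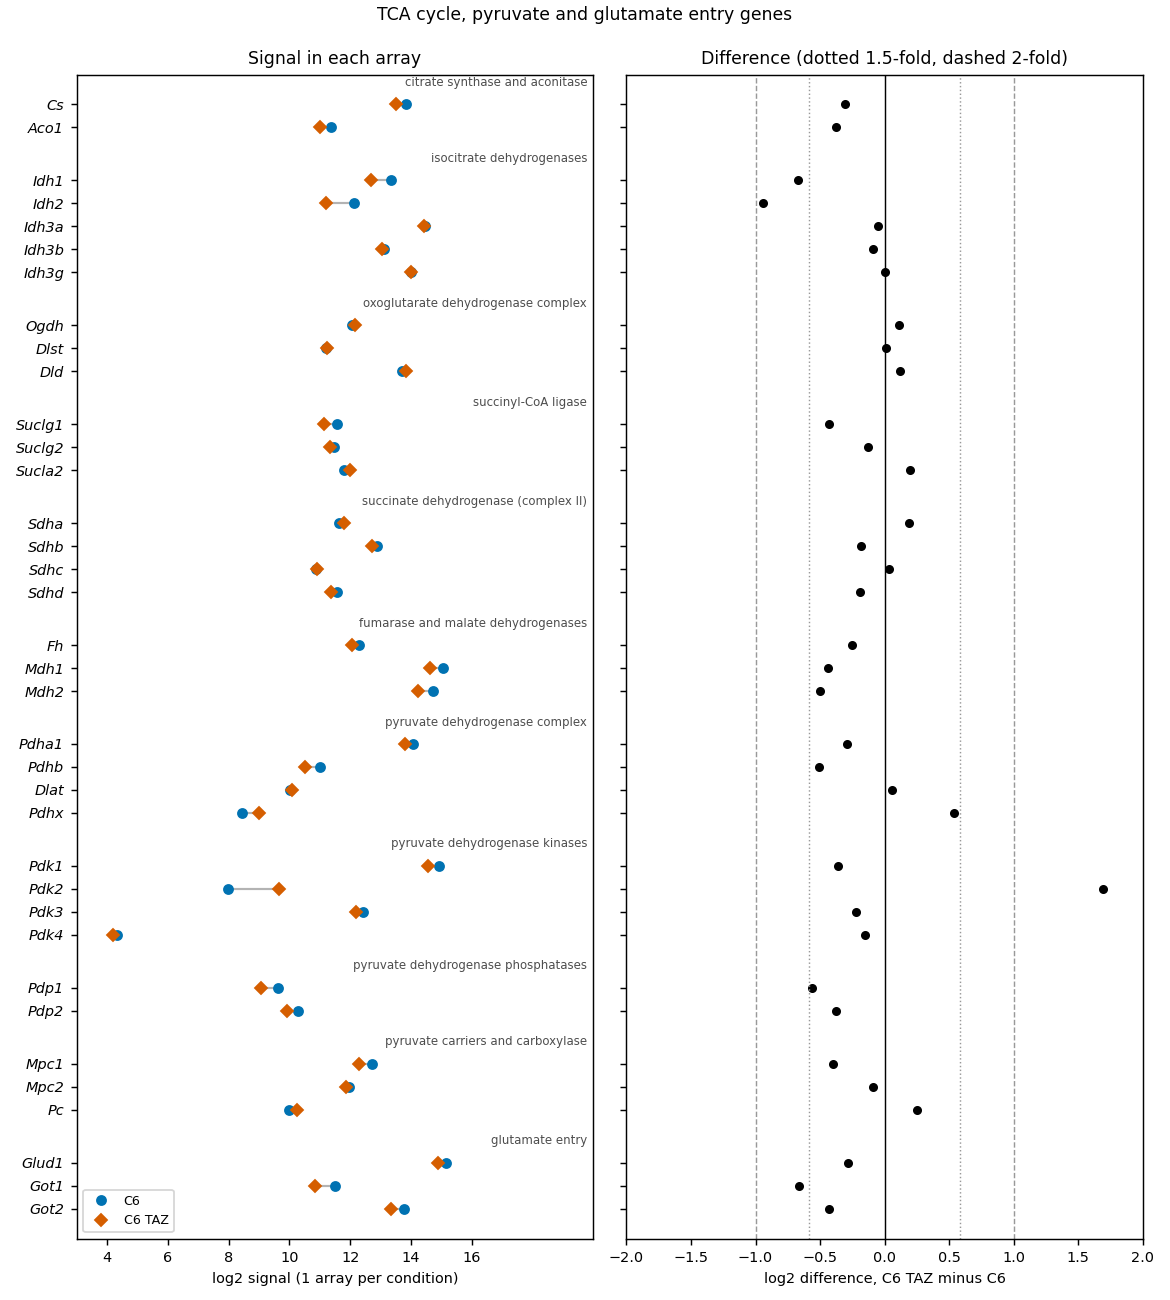
Log2 signal of the 36 genes in the C6 array (circles) and the C6 TAZ array (diamonds), left, and their log2 difference, right, grouped by role, with 1 array per condition and hence no error bars. Pdk2 stands apart at 1.69, Idh2, Idh1 and Got1 lie beyond the dotted line of 1.5-fold on the lower side, and the other genes lie between −0.56 and 0.54.

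**Figure D2:**
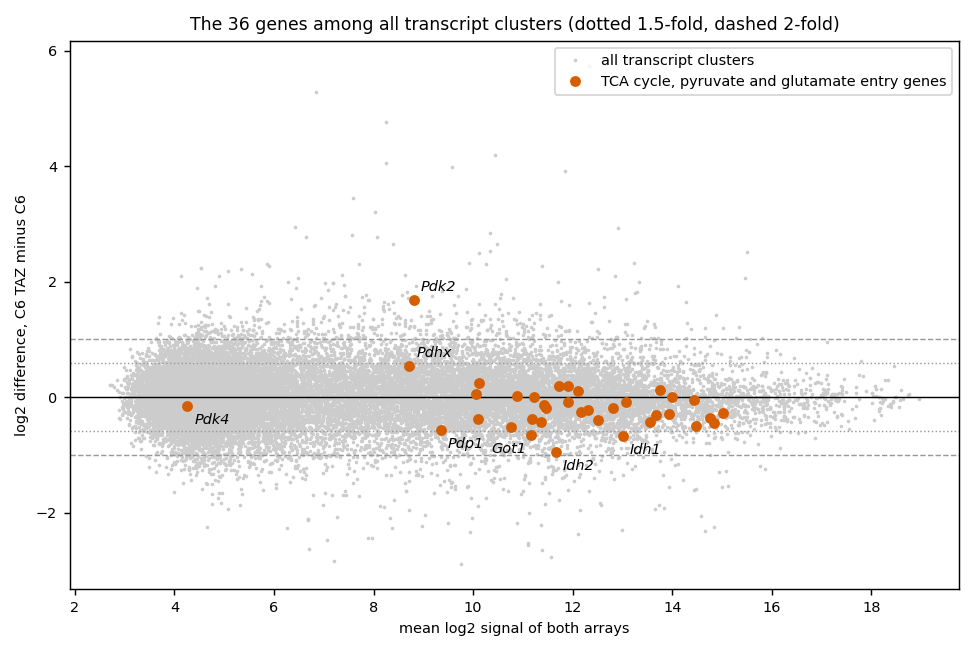
Log2 difference against the mean log2 signal of both arrays for all 23188 transcript clusters (grey) and the 36 genes (orange). Most of the 36 genes are bright and lie a little below the line at 0, with Pdk2 above the 2-fold line and Pdk4 at the dim end.

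The start-site regions of the 4 genes past 1.5-fold are shown because these genes had the largest differences among the 36. They are RefSeq sequences of the GRCr8 build, from 250 bases before to 50 after the annotated start, and 32 of the 36 genes had such an entry. They were searched on both strands for 8 motifs. Capitals mark the matches, which were an E box and CCAAT boxes in Pdk2 and GC boxes or CCAAT boxes in the other genes. A match on the opposite strand is shown as its reverse complement.
Pdk2, chr10:80483863-80484162, minus strand: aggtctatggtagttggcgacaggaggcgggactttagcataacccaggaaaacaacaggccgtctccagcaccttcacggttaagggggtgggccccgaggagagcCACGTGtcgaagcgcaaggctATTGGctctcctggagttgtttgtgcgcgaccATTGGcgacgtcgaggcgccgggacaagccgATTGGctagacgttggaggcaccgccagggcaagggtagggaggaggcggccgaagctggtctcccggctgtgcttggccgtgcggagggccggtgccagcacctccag
Idh1, chr9:74049425-74049724, minus strand: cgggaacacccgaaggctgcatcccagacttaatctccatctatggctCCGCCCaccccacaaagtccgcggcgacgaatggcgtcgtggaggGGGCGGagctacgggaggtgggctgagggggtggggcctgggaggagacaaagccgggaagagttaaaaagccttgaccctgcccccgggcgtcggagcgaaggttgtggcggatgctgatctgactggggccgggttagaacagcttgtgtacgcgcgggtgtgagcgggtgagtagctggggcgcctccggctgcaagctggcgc
Idh2, chr1:143467199-143467498, minus strand: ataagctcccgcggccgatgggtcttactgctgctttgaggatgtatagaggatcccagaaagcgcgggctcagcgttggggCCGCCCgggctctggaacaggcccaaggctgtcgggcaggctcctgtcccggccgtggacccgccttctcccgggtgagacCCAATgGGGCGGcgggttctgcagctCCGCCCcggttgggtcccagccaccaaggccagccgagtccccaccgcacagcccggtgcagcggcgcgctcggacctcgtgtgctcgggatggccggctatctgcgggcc
Got1, chr1:252329822-252330121, minus strand: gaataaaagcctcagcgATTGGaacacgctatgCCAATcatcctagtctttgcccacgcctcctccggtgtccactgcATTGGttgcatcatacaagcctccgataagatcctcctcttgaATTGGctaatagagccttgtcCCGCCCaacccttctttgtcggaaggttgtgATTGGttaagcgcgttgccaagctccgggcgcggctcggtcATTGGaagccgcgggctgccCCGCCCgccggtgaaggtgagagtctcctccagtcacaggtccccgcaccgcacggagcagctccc

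Counted from the start site as 0, Pdk2 had the E box CACGTG at −143 and 3 CCAAT boxes, the motif of NF-Y, at −122, −90 and −59. It had no GC box GGGCGG, the motif of SP1-type factors, in this window. Idh1 had 2 GC boxes (−202 and −157) and no CCAAT box. Idh2 had 3 GC boxes (−168, −81 and −61) and 1 CCAAT box (−87), and Got1 had 2 GC boxes and 6 CCAAT boxes. These motifs are common, and a match is only a description of the letters. A CCAAT box occurred in 37.5% of all 33469 promoters of this length and in 17 of the 32, a GC box in 33.1% and in 22 of the 32, and CACGTG in 6.42% and in 3 of the 32. The other motifs had no match in the 4 regions. Of these, the sterol regulatory element TCACNCCAC occurred in 1.12% of all promoters and in 0 of the 32, the NRF1 motif in 4.25% and in 3 of the 32 (Dld, Sdha and Sucla2), and the estrogen-related receptor motif TCAAGGTCA in 0.433% and in 1 of the 32 (Sdhd). The AP-1 motif TGANTCA was found in 7.33% of all promoters and in 1 of the 32 (Pdhb), and the CRE TGACGTCA in 1.83% and in 3 of the 32 (Mdh2, Ogdh and Sdhb).

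The largest difference among the 36 genes was in the control of the pyruvate dehydrogenase complex. Pdk2, a kinase that phosphorylates and inactivates the complex, read 7.96 on the log2 scale in C6 cells against 9.65 in C6 TAZ cells, a 3.23-fold higher signal in the knockout. Of all 23188 clusters, 80 (0.345%) had a difference at least as high. The other kinases were on the opposite side of 0. Pdk1, the isoform induced in hypoxia, had log2 signals of 14.93 and 14.57 (difference −0.36), and Pdk3 had 12.41 and 12.19 (−0.22). Pdk4, the isoform of fasting and fatty acid use in heart and muscle, had 4.33 and 4.18, below the median of either array, with a difference of −0.15. The spread over the 4 kinase genes thus ran from −0.36 to 1.69. The phosphatases that reactivate the complex were lower by less than 1.5-fold, Pdp1 with 9.63 and 9.07 (−0.56) and Pdp2 with 10.29 and 9.91 (−0.38). Their regulatory partner Pdpr, which is not among the 36, was higher, with 8.11 and 8.86 (0.75).

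The subunits of the pyruvate dehydrogenase complex itself did not share a direction, and their differences spanned 1.05 on the log2 scale. The genes of the E1 component, which decarboxylates pyruvate, were on the lower side. Pdha1 read 14.08 and 13.79, given as C6 and then C6 TAZ here and below (−0.29), and Pdhb had 11.01 and 10.50 (−0.51). Dlat, the acetyltransferase core, was nearly equal in both arrays with 10.02 and 10.08 (0.06). Pdhx, the protein that holds the E3 component to the core, was 1.45-fold higher, with 8.45 and 8.99 (0.54), the farthest upward of the 36 after Pdk2. Dld, the E3 component that this complex shares with others, had 13.70 and 13.82 (0.12).

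Before this complex, pyruvate has to cross the inner membrane. Mpc1 and Mpc2, which together form the carrier, had log2 signals of 12.70 and 12.30 (−0.40) and of 11.95 and 11.86 (−0.09). Pyruvate carboxylase (Pc), which makes oxaloacetate from pyruvate and so refills the cycle, had 9.99 and 10.24 (0.25). None of these passed 1.5-fold.

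Within the cycle, the isocitrate dehydrogenases fell into a pair of enzyme types with different values. Idh2, the mitochondrial enzyme that yields NADPH, read 12.13 and 11.19, 1.92-fold lower in the knockout, and 2.64% of all clusters were at least as low. Idh1, its cytosolic counterpart, had 13.34 and 12.67 and was 1.59-fold lower (6.73% of clusters at least as low). The genes of the NAD-dependent enzyme, which is the one that serves the cycle, were nearly equal in both arrays. Idh3a had 14.47 and 14.42 (−0.05), Idh3b 13.12 and 13.03 (−0.09) and Idh3g 13.99 in each (0.00). Under quantile normalization Idh3a was at 0.02 and Idh3g at 0.05, so that no direction can be given for these.

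Citrate synthase (Cs), the entry enzyme of the cycle, had log2 signals of 13.82 and 13.51 (−0.31). Aco1, the cytosolic aconitase that also serves as an iron regulatory protein, had 11.38 and 11.00 (−0.38).

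The 3 genes of the oxoglutarate dehydrogenase complex lay close together, between 0.01 and 0.12. Ogdh, its E1 component, had 12.06 and 12.17 (0.11), and Dlst, the succinyltransferase core, had 11.21 and 11.22 (0.01). This complex and the pyruvate dehydrogenase complex are built alike and share Dld. Mrps36, listed with the relatives of Ogdh among the adjoining genes, was below 0, with 8.42 and 8.13 (−0.29). By its symbol it is also counted with the mitochondrial ribosomal protein genes below. In succinyl-CoA ligase, Suclg1, the subunit common to both forms of the enzyme, had 11.57 and 11.14 (−0.43). Of the subunits that set its nucleotide, the GTP-specific Suclg2 had 11.48 and 11.35 (−0.13) and the ATP-specific Sucla2 was higher by 0.20 from 11.80 in C6.

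Succinate dehydrogenase, which is at once an enzyme of the cycle and complex II of the respiratory chain, differed little, with all 4 subunits between −0.19 and 0.19. The flavoprotein gene Sdha had 11.62 and 11.81 (0.19) and the iron-sulfur subunit gene Sdhb 12.89 and 12.71 (−0.18). The membrane anchors Sdhc (10.86 and 10.89, 0.03) and Sdhd (11.55 and 11.36, −0.19) lay in the same range. The genes of all 4 assembly factors of the complex were above 0, at 0.18 (Sdhaf1, on a cluster shared with another symbol), 0.47 (Sdhaf2), 0.48 (Sdhaf3) and 0.34 (Sdhaf4), none of them past 1.5-fold.

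The genes of fumarase and mitochondrial malate dehydrogenase, the last steps of the cycle, were below 0. So was the gene of the cytosolic malate dehydrogenase, and none of them passed 1.5-fold. Fumarase (Fh) had 12.30 and 12.05 (−0.25). Mdh2, the mitochondrial malate dehydrogenase, had 14.73 and 14.23 (−0.50), and Mdh1 in the cytosol had 15.05 and 14.61 (−0.44).

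The genes of glutamate entry were below 0 as well. Glutamate dehydrogenase (Glud1) had log2 signals of 15.16 and 14.88 (−0.28). Got1, the cytosolic aspartate aminotransferase, had 11.49 and 10.83 and was 1.58-fold lower in C6 TAZ, with 7.01% of all clusters at least as low. Got2, the mitochondrial form, had 13.76 and 13.33 (−0.43). Got1, Got2, Mdh1 and Mdh2 are also the enzymes of the malate-aspartate shuttle, which carries reducing equivalents from the cytosol into mitochondria. Of its carriers, the malate-oxoglutarate exchanger Slc25a11 was 1.65-fold lower (13.47 and 12.75), while the aspartate-glutamate exchangers Slc25a12 (−0.03, from a shared cluster) and Slc25a13 (0.03) were nearly equal. Over these 7 genes of the shuttle, 6 were below 0 and 2 were lower by 1.5-fold or more, beside 49.5% and 9.05% of all clusters.

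Enzymes present in the cytosol and in mitochondria could be set side by side by their differences. Both forms were below 0 for NADP-dependent isocitrate dehydrogenase (Idh1 −0.67, Idh2 −0.94), malate dehydrogenase (Mdh1 −0.44, Mdh2 −0.50) and aspartate aminotransferase (Got1 −0.66, Got2 −0.43). The mitochondrial form was the lower one for isocitrate dehydrogenase and the higher one for the aminotransferase. For malate dehydrogenase, the mitochondrial value minus the cytosolic one was −0.06, too little to give an order. Malic enzyme, which makes pyruvate from malate, behaved otherwise, with the cytosolic NADPH-yielding Me1 at −0.96 (11.93 and 10.97) and the mitochondrial Me2 at 0.14 (14.21 and 14.35).

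Around these 36 genes, 75 genes of adjoining steps were listed, among them malic enzymes, transaminases, lipoylation enzymes, carriers and lactate dehydrogenases. At 2-fold, 3 of the 75 were on the higher side and 2 on the lower, and at 1.5-fold 9 and 7. Over all clusters the shares were 2.34% and 2.10% at 2-fold and 9.87% and 9.05% at 1.5-fold, so these counts were near the background. Their median was 0.09, with 42 above 0 and 32 below 0. Where the mean log2 signal reached 8, which left 46 of them, the median was −0.05, so that no direction can be given for this list as a whole. Glutamine synthetase (Glul), which makes glutamine from glutamate, had 9.78 and 9.63 and was within 1.5-fold. Slc25a22, a mitochondrial glutamate carrier, was higher with a mean of 0.77 over 2 clusters, which read 1.16 and 0.37. Dhtkd1, an E1 relative of Ogdh in lysine breakdown, had 5.08 and 6.30 (1.22), and Amt of the glycine cleavage system, which also uses Dld, had 5.70 and 6.61 (0.91). Dhtkd1 and Amt lay below the median of the C6 array and, in C6 TAZ, below it for Dhtkd1 and slightly above it for Amt.

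On the lower side, Pck2, the mitochondrial enzyme that turns oxaloacetate into phosphoenolpyruvate, had log2 signals of 13.12 and 11.72 (−1.40). Oxct1, which activates ketone bodies to acetoacetyl-CoA with succinyl-CoA, had 11.12 and 9.72 (−1.40) from a cluster shared with other symbols. Pccb, a subunit of propionyl-CoA carboxylase, had 11.39 and 10.66 (−0.73), whereas its partner Pcca had 10.28 and 10.19 (−0.09). The citrate carrier Slc25a1, which exports citrate for lipid synthesis, had 11.78 and 11.16 (−0.62), and ATP citrate lyase (Acly), the cytosolic enzyme that cleaves it, had 15.59 and 15.11 (−0.48). At the end of glycolysis, lactate dehydrogenase A and pyruvate kinase were within 1.5-fold, with Ldha at 17.76 and 17.61 (−0.15) and Pkm at 17.20 and 16.72 (−0.48).

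Other lists had medians on the same side of 0. Apart from glycolysis, they were drawn by the pattern of the gene symbol. They can therefore hold genes with a like symbol that are not subunits, and Ndufa4l2 (1.21) and Atp5sl (−0.52) are counted in them. The medians were −0.23 for 41 complex I genes, −0.15 for 24 genes of complexes III and IV, −0.52 for 15 ATP synthase genes, −0.23 for 72 mitochondrial ribosomal protein genes and −0.24 for 16 genes of glycolysis, while 75 cytosolic ribosomal protein genes were at −0.01. The share below 0 was 69.4% for the 36 genes, 73.2% for complex I, 70.8% for complexes III and IV, 100% for ATP synthase, 69.4% for the mitochondrial ribosome, 81.2% for glycolysis and 50.7% for the cytosolic ribosome. These are descriptions of 1 pair of arrays, since no test of a difference between lists was made.

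**Figure D3:**
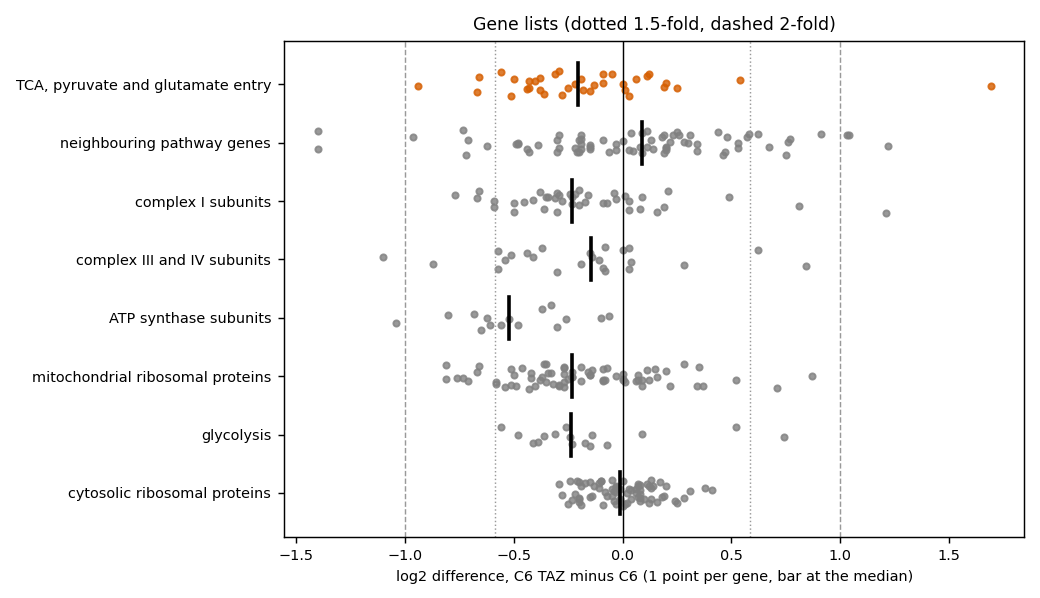
Log2 difference, C6 TAZ minus C6, with 1 point per gene and a bar at the median of each list. The 36 genes (orange, median −0.21) overlap with the other mitochondrial lists, whose medians run from −0.15 to −0.52, and cytosolic ribosomal protein genes lie around 0.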

How the data were processed

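Per the labels, the arrays were handled with Affymetrix Expression Console, and the workbook's annotation line names the rn6 build. The log2 signal of each transcript cluster is used as the authors deposited it. How background, summarization and normalization were done, the sources used here do not say. The deposited workbook also holds a score, the authors' signed fold change of C6 TAZ over C6, and a sheet of selected peptidases, both left aside. The analysis of variance in the study's methods cannot be made with 1 array per condition.

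Differences of log2 signals were rounded to 2 decimals and called from 2-fold or 1.5-fold upward. A gene was read from clusters carrying its symbol alone (Idh3b stands as Idh3B), otherwise from shared ones, and several clusters were averaged. The text names all 36 genes. Of 75 adjoining genes it names some picked after their values were seen (Sdhaf1 to Sdhaf4, Mrps36, Slc25a1, Slc25a12, Slc25a13, Me2, Glul, Pcca, Acly, Ldha and Pkm). By rule it names those past 2-fold and the 12 with the largest difference where an array reached a log2 signal of 6. Some of the adjoining genes that this rule names are not reported here, though they stay in the counts. Genes and lists were chosen with earlier results of these data known. The scripts were tested on simulated data. Python 3.11.15, NumPy 2.4.6, pandas 2.3.3 and Matplotlib 3.10.9 were used. Alternatives were other scalings, minimum signals of 6 and 8, the brightest cluster per gene, a mean, the list without kinases and phosphatases and the names of the second table. The number of arrays limits the precision.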

Additional observations from a re-analysis of the deposited data

How the results depend on the processing

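With median centring, quantile normalization or centring on ribosomal protein genes, the median of the 36 genes lay between −0.22 and −0.20, Pdk2 between 1.64 and 1.70, Idh2 between −0.95 and −0.93, Idh1 between −0.68 and −0.64 and Got1 between −0.67 and −0.65. The number of genes lower by 1.5-fold was 3, or 4 with quantile normalization, where Pdp1 reached −0.59, and the number below 0 was 26, 24 and 25 in that order of scalings. These scalings moved the median of all clusters by 0.01 at most. The mean of the 36 genes was −0.16, and their median without kinases and phosphatases −0.19. Where the mean log2 signal reached 8, 35 of the 36 genes were left, with the same counts. Of the 75 adjoining genes 46 were left, with a median of −0.05. Among these 46, 1 was higher and 2 were lower by 2-fold, and 4 were higher and 7 lower by 1.5-fold. Of all clusters at that signal, 2.75% were higher and 2.31% lower at 2-fold, and 9.91% and 8.73% at 1.5-fold. By the brightest cluster, 4 adjoining genes were higher by 2-fold, Slc25a22 being added.

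With the array names of the per-sample table, the signs change by construction. Then 0 of the 36 genes were higher and 1 was lower by 2-fold, 3 were higher and 1 lower by 1.5-fold, and the median was 0.21, with Pdk2 at −1.69, Idh2 at 0.94, Idh1 at 0.67 and Got1 at 0.66. The median of the adjoining genes was −0.09. No paired analysis was possible because each condition has 1 array. Background and detection were not measured here, so that dim genes such as Pdk4 have no detection limit. For want of replicates, the SD of 0.15 over the differences of 100 cytosolic ribosomal protein clusters served to judge whether a value moved.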
